A study of Mus musculus with 8 samples.

Results

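The autophagy machinery and the receptors that select its cargo were followed as 40 genes, chosen by name from the 19457 gene rows of the table, and all 40 had a row and passed the filter on low values. They fall into 5 ubiquitin-binding receptors, 3 other receptors, 28 genes of the core machinery and 4 lysosome regulators and membrane proteins. RNA was sequenced from primary keratinocytes of mouse skin, the main cell type of the epidermis, grown in culture and still short of confluence. The 4 HdR libraries came from cells of HOIL1 ΔRING1 mice, named for a deletion in the RING1 part of HOIL-1L, and the 4 WT libraries from wild-type cells; no treatment is given for either genotype. The age of the mice is not given, and neither is whether each library stands for its own animal or culture, in the sources used here. The spread behind each p-value is thus that of these libraries, which may be technical.

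Autophagy encloses cytoplasm in a double membrane, the autophagosome, and delivers it to the lysosome for breakdown. A kinase complex built on ULK1 starts the process, a lipid kinase built on VPS34 marks the membrane, and conjugation enzymes attach small ubiquitin-like ATG8 proteins to it. Selective receptors hold ubiquitinated cargo with one end and ATG8 proteins with the other. HOIL-1L, encoded by Rbck1, is a subunit of the ligase that builds linear ubiquitin chains, and optineurin is among the receptors known to bind such chains.

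Levels are the deposited coverage sums scaled for depth, in aligned bases for each Mb of library (written per Mb). A fold change is HdR minus WT on the log2(value + 1) scale, and a gene was called at a limma adjusted p under 0.05 over 11870 genes. The HdR libraries held 2.31 to 4.31 Gb of aligned bases and the WT libraries 4.78 to 5.43 Gb, so depth and genotype cannot be told apart. Rbck1 had 41.1 to 45.2 per Mb in HdR and 84.5 to 91.5 per Mb in WT, a log2 fold change of -0.99 ± 0.047 (SE, adjusted p = 7.25e-11). Among keratinocyte markers, Krt5 and Krt14 averaged 18576 and 17012 per Mb in HdR and 17291 and 17480 per Mb in WT.

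Transcripts of the autophagy genes were mostly lower in HdR, by modest amounts. Of the 40 genes, 23 were called lower, 1 higher and 16 were not called. That is 57.5% lower and 2.5% higher, beside 23.8% lower and 21.2% higher among all tested genes. The median log2 fold change was -0.18 over the 40 genes and -0.01 over all tested genes. All 4 HdR libraries lay below all 4 WT libraries in 22 of the 40, against 21.3% of all tested genes, and above them in 1, against 19.8%. The changes ranged from -0.64 for Map1lc3a to 0.33 for Wipi1. Tested against a fold of 1.2, 3 of the 40 were called lower (Optn, Calcoco1 and Map1lc3a), where 4.58% of all tested genes were; Wipi1 was not called higher, where 2.89% of all tested genes were.

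**Figure D1:**
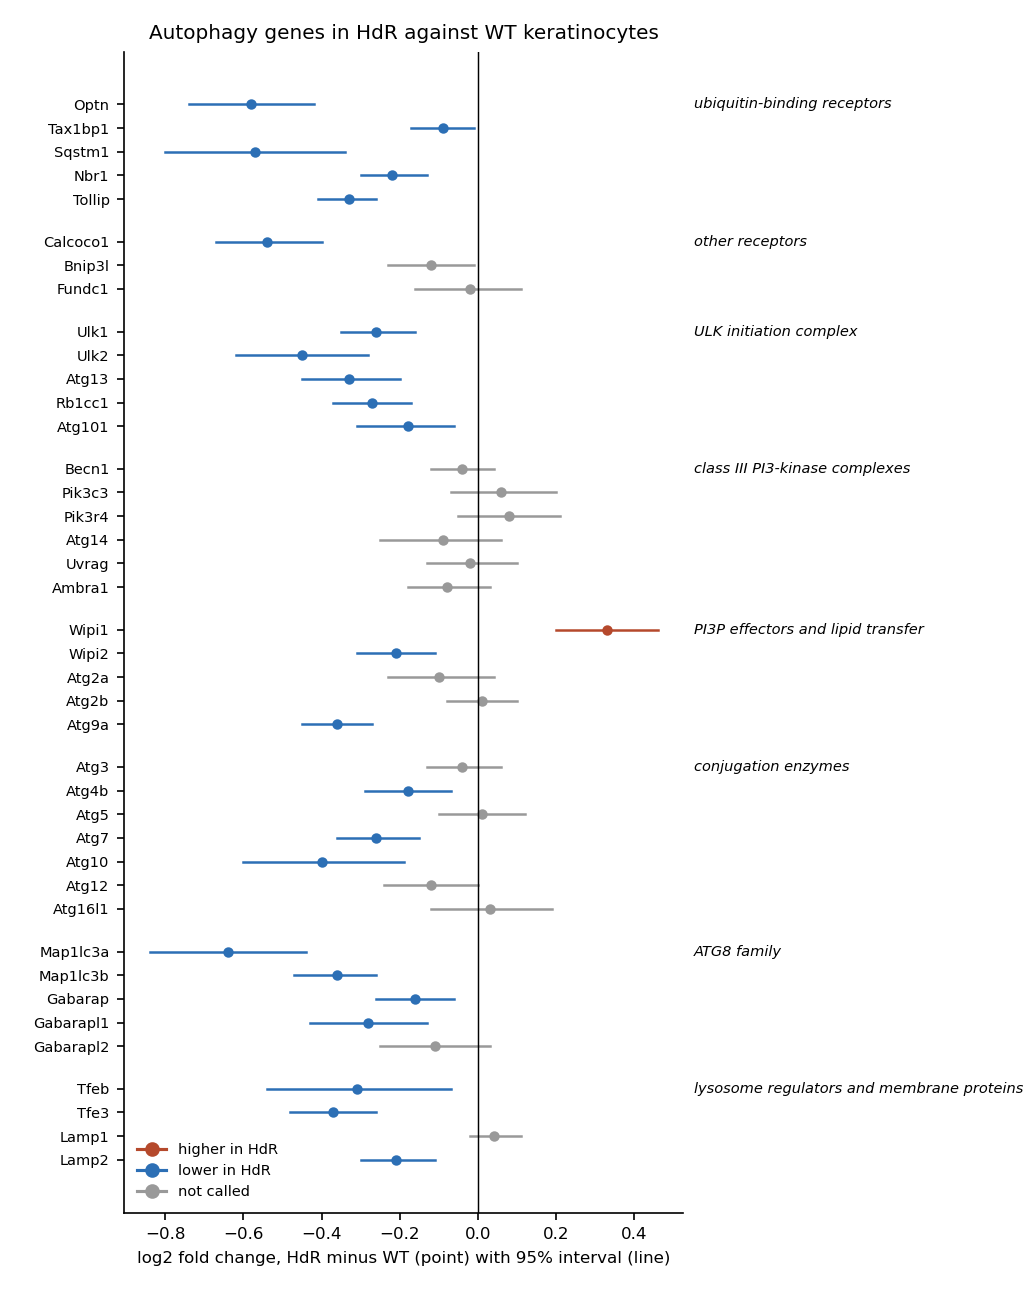
Log2 fold change, HdR minus WT, of each of the 40 autophagy genes (points) with its 95% interval (lines), grouped by role and coloured by call. The ubiquitin-binding receptors and the ULK complex lie left of 0, the class III PI3-kinase genes lie around 0, and Wipi1 at 0.33 is the called gene to the right.

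All 5 ubiquitin-binding receptor genes were called lower, with a median log2 fold change of -0.33. Optn encodes optineurin, which binds ubiquitin chains and damaged mitochondria or bacteria that carry them. It had 10.3, 10.7, 11.7 and 11.3 per Mb in HdR, against 18, 17.6, 16.8 and 15.4 per Mb in WT. The groups did not overlap, and the log2 fold change was -0.58 ± 0.074 (SE, limma adjusted p = 8.2e-06).

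Sqstm1 encodes p62, a receptor that gathers ubiquitinated proteins into condensates. It stood at 203, 246, 203 and 241 per Mb in HdR, against 323, 386, 314 and 307 per Mb in WT. Every HdR library was lower than every WT library, although the spread within each genotype was wide (-0.57 ± 0.098, SE, adjusted p = 0.00229). An exon of Mrnip on the opposite strand covers 17.3% of the Sqstm1 exon length; the strand setting is not given in the sources used here, so reads there could come from either gene. Mrnip itself was at -0.12 (adjusted p = 0.469).

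Tollip, whose product binds ubiquitin through a CUE domain and also adapts Toll-like receptor signalling, had 194, 191, 194 and 199 per Mb in HdR, against 253, 248, 250 and 231 per Mb in WT (-0.33 ± 0.036, adjusted p = 1.49e-06). Nbr1, a p62 partner with its own ubiquitin-associated domain, had 108, 104, 112 and 110 per Mb in HdR, against 126, 128, 130 and 121 per Mb in WT (-0.22 ± 0.039, adjusted p = 0.000251). Both were separated between the genotypes with little spread within them. Tax1bp1, a receptor that also carries the A20 deubiquitinase to its targets, had 214, 206, 224 and 215 per Mb in HdR, against 230, 220, 232 and 233 per Mb in WT. Its groups overlapped and its fold change of -0.09 ± 0.036 only just passed (adjusted p = 0.0495). That call was lost in 12 of the alternatives, with adjusted p of 0.27 under upper-quartile scaling, and also in the test against a fold of 1.2.

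Of the 3 receptors that do not rest on ubiquitin, Calcoco1 fell and the other two were not called. Calcoco1, a paralogue of TAX1BP1 that serves turnover of the endoplasmic reticulum, had 15.7, 14.8, 16.1 and 16.3 per Mb in HdR, against 22.4, 24.1, 24.2 and 22.4 per Mb in WT. The genotypes were well apart (-0.54 ± 0.063, adjusted p = 3.62e-06). The mitochondrial receptor genes Bnip3l and Fundc1 were at -0.12 (95% interval -0.23 to -0.01, adjusted p = 0.076) and -0.02 (-0.16 to 0.11, adjusted p = 0.793). Bnip3l was called lower by limma-voom (adjusted p = 0.0309), without WT 2 (0.0283) and without WT 4 (0.031).

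**Figure D2:**
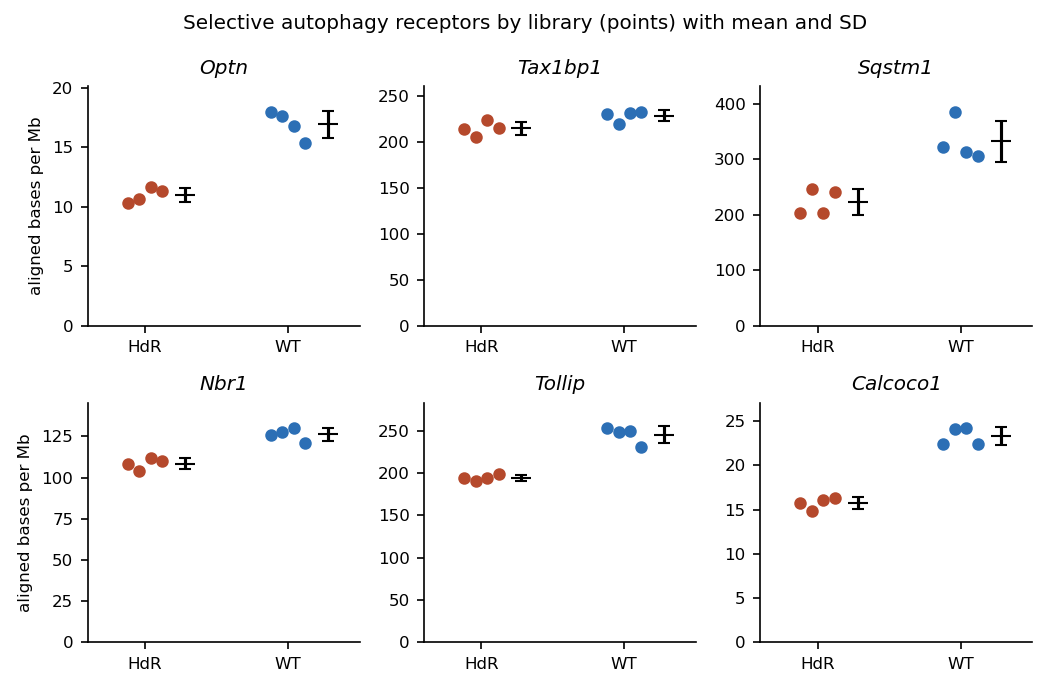
Level in aligned bases per Mb of 6 receptor genes in each HdR library (left) and WT library (right), with the mean and SD of each genotype. The genotypes are separated in 5 panels and overlap for Tax1bp1, at 206 to 224 in HdR and 220 to 233 in WT.

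The ubiquitin-binding receptors had a lower median fold change than the core machinery. The medians were -0.33 for the receptors and -0.14 for the core, a difference of -0.20 on the log2 scale. Measured in each HdR library against the WT mean, the difference was -0.18, -0.21, -0.16 and -0.15 (SD 0.03 over these 4 libraries). The receptor median was the value of Tollip in each of them (-0.335, -0.360, -0.338 and -0.303). The small SD thus rests on the spread of Tollip and of the core median, while Sqstm1 ran from -0.706 to -0.426. In the WT libraries the difference lay between -0.04 and 0.03. Each gene was centred on its WT mean, so values near 0 there follow from the measure and are no control. Receptors called lower were 5 of 5, and core genes 14 of 28 (50%), beside 23.8% of all tested genes. The 5 include Tax1bp1, which only just passed. When single libraries were left out, 4 to 5 receptors and 13 to 14 core genes were called lower. These are descriptions of named genes: members of a list are not replicates, and the difference between the lists was not tested. The spread inside both lists was wide, since Tax1bp1 at -0.09 lay above the core median and Map1lc3a at -0.64 lay below every receptor. Counting Calcoco1 among these receptors moved the difference to -0.30.

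**Figure D3:**
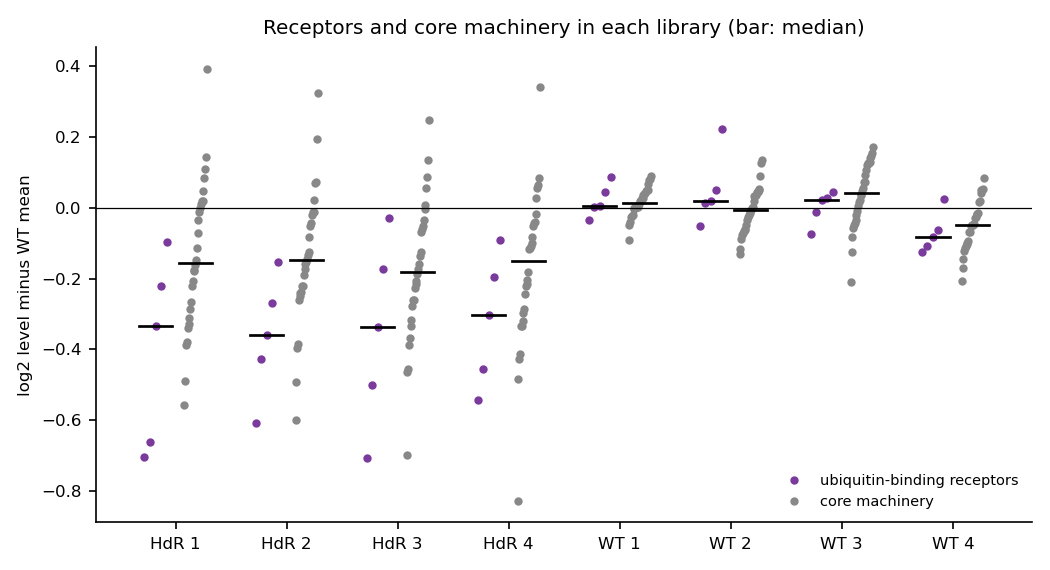
Log2 level of each ubiquitin-binding receptor gene (purple) and each core machinery gene (grey) minus its WT mean, in the 4 HdR and then the 4 WT libraries, with the median as a bar. Receptor medians, which are the values of Tollip, are -0.36 to -0.30 in HdR libraries and core medians -0.18 to -0.15.

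Within the core machinery, the initiating ULK complex and the lipid kinase complexes differed in their counts. All 5 ULK complex genes were called lower (median -0.27), and limma called none of the 6 class III PI3-kinase genes (median -0.03); 0 of the 6 had an unadjusted p under 0.05, and limma-voom also called 0. Ulk2, a kinase related to ULK1, had 14.2, 11.6, 12.9 and 13.4 per Mb in HdR, against 19.1, 19.4, 15.5 and 18.8 per Mb in WT (-0.45 ± 0.082, adjusted p = 0.000274). Atg13, the adaptor that links the kinase to its scaffold, had 49.5, 53.7, 45.5 and 51.4 per Mb in HdR, against 65, 59.5, 68.8 and 58.5 per Mb in WT (-0.33 ± 0.060, adjusted p = 0.000286). Both genes were separated between the genotypes. The kinase gene Ulk1 was at -0.26 ± 0.044 and the scaffold gene Rb1cc1, which encodes FIP200, at -0.27 ± 0.048 (adjusted p = 0.000153 and 0.000235). Atg101, which stabilises ATG13, was at -0.18 ± 0.059 (adjusted p = 0.0171) and lost its call without HdR 1 (0.0655), without WT 3 (0.0551) and under upper-quartile scaling (0.0537).

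The class III PI3-kinase genes had log2 fold changes from -0.09 to 0.08. Pik3c3, the catalytic subunit VPS34, averaged 23.1 ± 0.952 per Mb in HdR and 22 ± 1.41 in WT (SD, n = 4 each), with a 95% interval of -0.07 to 0.20 for the log2 fold change. Becn1, the scaffold subunit beclin, averaged 98.7 ± 0.488 in HdR and 102 ± 3.56 in WT (interval -0.12 to 0.04). However, 43.9% of its exon length is shared with Cntd1 on the other strand, and Cntd1 itself was lower (-0.19, limma adjusted p = 0.0412). The regulatory subunit gene Pik3r4 had an interval of -0.05 to 0.21. Atg14 and Uvrag, alternative partners that set where the kinase acts, had intervals of -0.25 to 0.06 and -0.13 to 0.10, and Ambra1 one of -0.18 to 0.03. Changes as large as that of Ulk2, the largest fall in the ULK complex at -0.45, lie outside all 6 intervals. The smallest fall in that complex, -0.18 for Atg101, lies inside the Atg14 interval, and the Ambra1 interval reaches -0.18. A difference between the complexes was not tested.

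Genes that act on the marked membrane went both ways. Wipi1, which encodes a reader of the lipid mark, was the only one of the 40 called higher: 24.6, 23.4, 22.2 and 23.7 per Mb in HdR, against 18.9, 17.3, 18.7 and 19.1 per Mb in WT. The groups did not overlap (0.33 ± 0.062, adjusted p = 0.000374), and the rise did not pass the test against a fold of 1.2. Its paralogue Wipi2, which recruits the conjugation machinery, was lower (-0.21 ± 0.046, adjusted p = 0.00145). Atg9a, a scramblase carried on vesicles that seed the membrane, had 54.7, 54.9, 56.9 and 56.9 per Mb in HdR, against 70.9, 74.5, 73.1 and 69.6 per Mb in WT (-0.36 ± 0.042, adjusted p = 3.4e-06). The lipid transfer genes Atg2a and Atg2b were not called, at -0.10 (interval -0.23 to 0.04) and 0.01 (-0.08 to 0.10).

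Of 7 conjugation enzyme genes, 3 were lower and 4 not called. Atg10, the enzyme that joins ATG12 to ATG5, was the least covered of the 3, with 4.04, 4.38, 4.48 and 4.62 per Mb in HdR, against 5.98, 6.76, 6.36 and 5.29 per Mb in WT. Its groups were separate (-0.40 ± 0.098, adjusted p = 0.00321). Atg7, the activating enzyme of both conjugation arms, averaged 37.3 ± 1.27 per Mb in HdR and 44.8 ± 1.73 in WT (SD, n = 4 each; -0.26 ± 0.050, SE, adjusted p = 0.000427). The ATG8-processing protease gene Atg4b averaged 46.8 ± 2.9 in HdR and 53.1 ± 1.26 in WT (-0.18 ± 0.050, adjusted p = 0.00769), and its call was lost after thinning all libraries to the smallest (0.0974). Atg3, Atg5, Atg12 and Atg16l1, the last of which places the conjugation complex on the membrane, ran from -0.12 to 0.03. Atg12 had all HdR libraries at or below 30.7 and all WT libraries at or above 30.8 per Mb, and missed the threshold (adjusted p = 0.1).

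The ATG8 genes encode the proteins that coat the membrane and receive the receptors, and 4 of the 5 were called lower. Map1lc3a had 57.5, 60.2, 52 and 47.5 per Mb in HdR, against 89.9, 83.8, 94.2 and 73.6 per Mb in WT. The genotypes were far apart, although WT 4 lay well below the other WT libraries (-0.64 ± 0.089, adjusted p = 0.000224). Map1lc3b, the form most often used to mark autophagosomes, had 130, 142, 129 and 126 per Mb in HdR, against 170, 169, 185 and 156 per Mb in WT (-0.36 ± 0.050, adjusted p = 1.78e-05). Gabarapl1 was at -0.28 ± 0.073 (adjusted p = 0.00486) and shares 28.3% of its exon length with an opposite-strand gene. Gabarap was at -0.16 ± 0.048 (adjusted p = 0.0126); its call was lost under upper-quartile scaling (0.0528) and after thinning (0.143). Gabarapl2 was not called (-0.11, interval -0.25 to 0.03, adjusted p = 0.18).

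Per kilobase of exon, which allows levels to be compared between genes, Gabarap was the most covered ATG8 gene in both genotypes, at 93.8 ± 2.9 aligned bases per Mb per kb in HdR and 105 ± 8.23 in WT (SD, n = 4 each). Map1lc3a followed with 46 ± 4.8 in HdR and 72.3 ± 7.57 in WT. Map1lc3b had 17.5 ± 0.937 in HdR and 22.6 ± 1.58 in WT, Gabarapl1 15.3 ± 1.47 in HdR and 18.7 ± 1.59 in WT, and Gabarapl2 16.9 ± 1.19 in HdR and 18.3 ± 1.65 in WT. The libraries of Gabarapl1 and Gabarapl2 overlapped in both genotypes, so the order of these genes is not resolved. Exon length is that of all annotated transcripts merged, which lowers the value of genes with long or retained exons. Over all 40 genes, Lamp1 was the most covered per kb (207 ± 2.21 in HdR and 201 ± 5.21 in WT) and Tfeb the least (0.883 ± 0.127 in HdR and 1.14 ± 0.143 in WT).

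**Figure D4:**
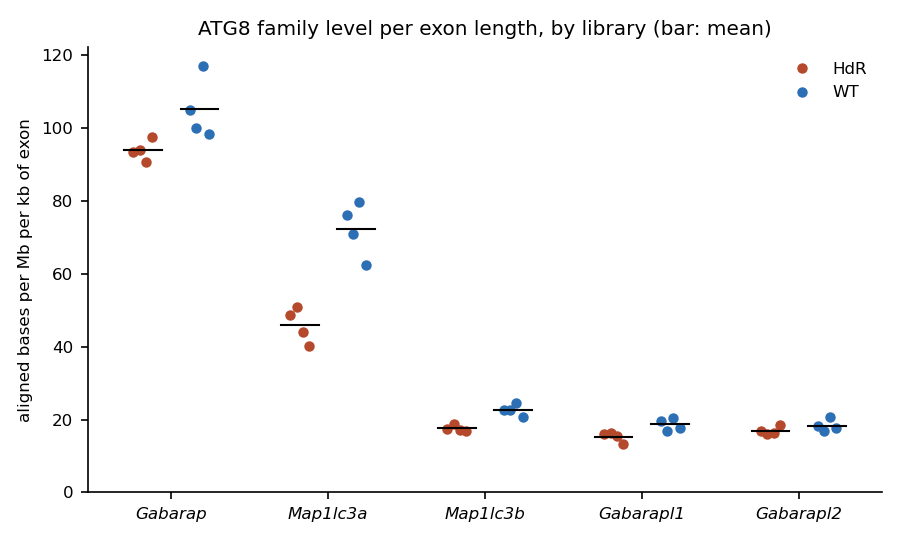
Level of the 5 ATG8 family genes in aligned bases per Mb per kb of exon, in each HdR library (left of each pair) and WT library (right), with the mean as a bar. Gabarap is highest, and Map1lc3a shows the widest separation, at 40.2 to 51 in HdR and 62.3 to 79.8 in WT.

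Of the 4 genes of lysosome regulators and membrane proteins, the regulators Tfe3 and Tfeb were lower. The membrane protein genes split, with Lamp2 lower and Lamp1 not called. Tfe3 encodes a transcription factor of autophagy and lysosome genes and had 45, 48.5, 44.4 and 43.7 per Mb in HdR, against 62, 62.5, 55.2 and 56.7 per Mb in WT. The groups did not overlap (-0.37 ± 0.053, adjusted p = 2.53e-05). Its relative Tfeb was low throughout, at 4.27 to 5.83 per Mb in HdR and 5.25 to 7.04 in WT, with overlapping groups (-0.31 ± 0.111, adjusted p = 0.0316). The Tfeb call was lost without any one of 5 libraries (adjusted p 0.0664 to 0.102), and also with the replicate block. Lamp2, a lysosomal membrane glycoprotein gene, was lower (-0.21 ± 0.045, adjusted p = 0.00132), while Lamp1 averaged 555 ± 5.86 per Mb in HdR and 538 ± 13.9 in WT (0.04, interval -0.02 to 0.11, adjusted p = 0.275). Under upper-quartile scaling Lamp1 was called higher (0.09, adjusted p = 0.0443).

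Promoter sequence was examined because TFE3 and TFEB bind the E-box letters CACGTG, which read the same on both strands. RefSeq windows (GRCm38.p6) of 250 bases before to 50 after the start site were found for 33 of the 40 genes, and 5 held the letters: Lamp1, Atg3, Atg5, Atg7 and Atg14, or 15.2% of the 33 beside 8.09% of the 27025 genes with a window. The letters occur 4 times before the Lamp1 start, with first bases at -61, -45, -28 and -15, and 2 times before that of Atg3. A gene with several windows was counted when any of them held the letters. Of these 5 genes, Atg7 was called lower and the other 4 were not called. Among the 40 genes 57.5% were called lower, and among all tested genes 23.8%. With 5 genes, nothing about the letters can be read from this count. The Atg7 and Atg14 windows with the letters lie inside the genes as annotated by GENCODE, not at their outermost starts. The Atg7 window begins at chr6:114670846, and the plus-strand gene starts at 114643097. The Atg14 window ends at chr14:47568684, and the minus-strand gene starts at 47570649. The windows of Optn and Sqstm1, the receptor genes with the largest falls, held no CACGTG. The windows of these genes are printed on the gene's strand, with CACGTG in capitals; for Atg3, Atg5, Atg7 and Atg14 the 20 bases to each side are shown. A match of letters is a description of the window and not a binding site. The antioxidant response element core TGACNNNGC, searched on both strands, was in the windows of 4 genes (Atg13, Map1lc3b, Tax1bp1 and Ulk2), 12.1% beside 14% of all genes with a window.
Lamp1, chr8:13158911-13159210, plus strand: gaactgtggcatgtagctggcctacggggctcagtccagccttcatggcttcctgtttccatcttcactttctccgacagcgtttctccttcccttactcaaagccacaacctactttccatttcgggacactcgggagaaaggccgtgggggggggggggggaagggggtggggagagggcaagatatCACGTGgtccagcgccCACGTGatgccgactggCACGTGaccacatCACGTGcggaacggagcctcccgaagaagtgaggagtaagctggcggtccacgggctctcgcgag
Optn, chr2:5064068-5064367, minus strand: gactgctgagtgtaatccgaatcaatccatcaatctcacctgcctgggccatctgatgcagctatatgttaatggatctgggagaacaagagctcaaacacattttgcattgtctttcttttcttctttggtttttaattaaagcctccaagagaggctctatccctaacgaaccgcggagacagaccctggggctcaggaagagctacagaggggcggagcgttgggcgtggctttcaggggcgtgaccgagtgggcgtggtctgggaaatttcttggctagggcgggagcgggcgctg
Sqstm1, chr11:50210771-50211070, minus strand: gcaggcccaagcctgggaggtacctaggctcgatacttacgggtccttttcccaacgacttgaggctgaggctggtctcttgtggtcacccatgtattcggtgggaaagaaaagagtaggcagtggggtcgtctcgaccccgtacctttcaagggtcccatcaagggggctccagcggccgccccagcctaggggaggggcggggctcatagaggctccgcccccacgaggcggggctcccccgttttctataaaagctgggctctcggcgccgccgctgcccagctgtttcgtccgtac
Atg3, chr16:45158715-45158783, plus strand: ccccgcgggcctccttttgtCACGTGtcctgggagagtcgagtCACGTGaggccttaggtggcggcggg
Atg5, chr10:44268305-44268350, plus strand: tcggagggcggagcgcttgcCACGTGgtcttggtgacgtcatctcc
Atg7, chr6:114670944-114670989, plus strand: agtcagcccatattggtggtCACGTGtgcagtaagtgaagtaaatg
Atg14, chr14:47568410-47568455, minus strand: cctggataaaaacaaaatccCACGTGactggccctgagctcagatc

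Other genes of the pathway were taken from lists of other autophagosome genes, other receptors, lysosomal genes and upstream regulators. Among 18 tested genes of other receptors and their kinases, 8 were lower and 1 higher (median -0.11), or 44.4% and 5.56% beside 23.8% lower and 21.2% higher among all tested genes. Bnip3, a mitochondrial receptor and paralogue of Bnip3l, had 30.8, 35.1, 35 and 34 per Mb in HdR, against 78.8, 68, 76.6 and 73.2 per Mb in WT (-1.11 ± 0.056, adjusted p = 1.47e-10). It fell further than any of the 40 genes. Stbd1, which tethers glycogen to ATG8 proteins, was at -0.86 ± 0.071, the mitophagy kinase gene Pink1 at -0.58 ± 0.070 and the reticulum receptor gene Retreg2 at -0.30 ± 0.044, with adjusted p of 3.47e-05 or lower. Tbk1, the kinase that phosphorylates optineurin and p62, was at 0.02 and not called (adjusted p = 0.782), and is named outside the rule for naming genes.

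Of 27 tested autophagosome genes outside the 40, 7 were lower and 2 higher (median -0.08), a share of 25.9% lower that is near the 23.8% of all tested genes. The number higher was 1 without HdR 1, HdR 2, HdR 4, WT 2 or WT 4. The genes with the smallest p were Trp53inp2, an ATG8-binding nuclear protein (-0.55 ± 0.056), Wdr45, a WIPI relative (-0.51 ± 0.085), Epg5, a fusion tether (-0.42 ± 0.068), and Trp53inp1 (-0.41 ± 0.052). In the lysosomal hydrolase and membrane list 8 of 34 were lower and 5 higher (median -0.02). The share lower, 23.5%, is near the 23.8% of all tested genes, and the share higher was 14.7% beside 21.2%. Among single genes, the protease gene Ctsb and the receptor gene Scarb2 fell (-0.30 ± 0.033 and -0.25 ± 0.039), while Ctsz and Gusb rose (0.71 ± 0.086 and 0.42 ± 0.061). Of 16 genes of the proton pump that acidifies the lysosome, 6 were lower (37.5%, beside 23.8% of all tested genes) and limma called none higher (median -0.09; 0 higher at an unadjusted p under 0.05 and 0 by limma-voom), with Atp6v1a at -0.40 ± 0.041, Atp6v0a1 at -0.34 ± 0.049, Atp6v1g1 at -0.28 ± 0.051 and Atp6v0d1 at -0.26 ± 0.053.

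Of 36 tested mTORC1 and AMPK genes, which act upstream of ULK1, 8 were lower and 5 higher (median -0.06). These shares, 22.2% lower and 13.9% higher, stand beside 23.8% and 21.2% of all tested genes, so the share lower is near the background. Ddit4, a stress-induced inhibitor of mTORC1, had 60.6, 61.5, 53.1 and 57.8 per Mb in HdR, against 137, 128, 129 and 129 per Mb in WT (-1.15 ± 0.048, adjusted p = 1.39e-11). Sesn2, another such inhibitor, was also lower (-0.41 ± 0.043), as were the activator genes Rheb (-0.26 ± 0.039) and Lamtor2 (-0.35 ± 0.057). The called genes thus include both inhibitors and activators of mTORC1. The kinase gene Mtor itself was at 0.04 (adjusted p = 0.468), named outside the rule. The number called higher was 3 without HdR 2 or HdR 4 and 7 under upper-quartile scaling.

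**Figure D5:**
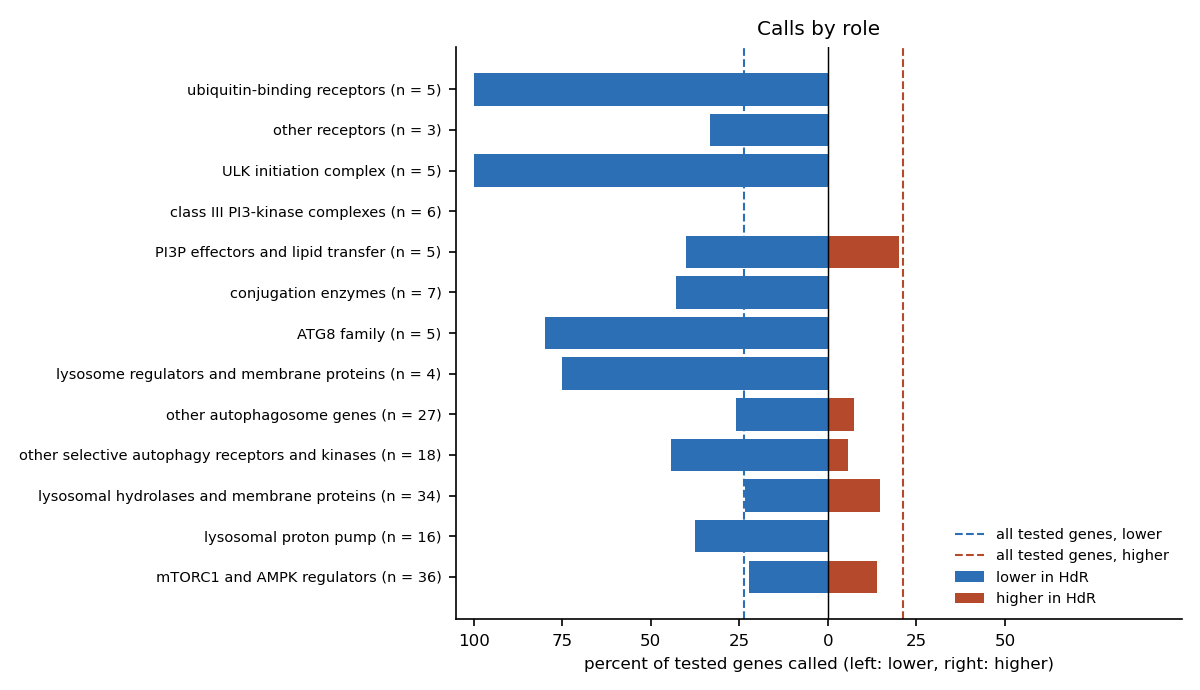
Percent of tested genes called lower (left) and higher (right) in HdR for each role among the 40 genes and for the 5 further lists, with dashed lines at 23.8% and 21.2% for all tested genes. The bars reach 100% for the ubiquitin-binding receptors and the ULK complex, and there is none for the class III PI3-kinase complexes. Each full bar includes a call lost under some alternatives (Tax1bp1 and Atg101).

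Markers of basal and suprabasal keratinocytes and of melanocytes also differed between the genotypes. Of 8 tested general and basal keratinocyte markers 4 were higher in HdR (50%, beside 21.2% of all tested genes). They were the adhesion genes Itgb4 (0.43, limma adjusted p = 3.35e-07), Itga6 (0.28, 0.000374) and Col17a1 (0.14, 0.0211) and the keratin gene Krt5 (0.10, 0.0247). The list summed to 48321 to 49976 per Mb in HdR and 46218 to 48808 per Mb in WT. Of 9 tested suprabasal keratinocyte markers 8 were lower (88.9%, beside 23.8% of all tested genes), with a median of -0.88. The summed level of the suprabasal list was 1605 to 1853 per Mb in HdR and 2353 to 3190 per Mb in WT. Of 7 tested melanocyte markers 6 were lower (85.7%, beside the same 23.8%). The sum of the 10 melanocyte markers was 27.4 to 29.6 per Mb in HdR and 52.4 to 60.8 per Mb in WT. Fibroblast markers (7 with a row) and endothelial markers (5 with a row) all averaged under 1 per Mb. The fibroblast sum was 0.428 to 4.74 per Mb in HdR and 0.691 to 1.34 in WT, and the endothelial sum 1.97 to 2.53 per Mb in HdR and 0.876 to 1.29 in WT. Of 9 leukocyte markers 7 averaged under 1 per Mb, with Adgre1, Cd207 and Lyz2 listed at 0 in all libraries. The 2 tested, Cd68 and Itgam, were called lower (-0.50 and -0.46, limma adjusted p = 8.12e-06 and 0.00602). The leukocyte list summed to 42.7 to 43.9 per Mb in HdR and 52.4 to 66.2 in WT, mostly Cd68. The part of these cells in the autophagy values was not tested, and in whole cultures fewer cells of a type and less RNA per cell cannot be told apart.

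Among the WT libraries, WT 4 was the nearest to HdR for most of the genes that fell. It was the lowest of the 4 WT libraries in 14 of the 23 genes called lower, against 1, 5 and 3 for WT 1, WT 2 and WT 3. HdR 4, the shallowest library, was the highest of the HdR libraries in 10 of the 23. These counts were not made over all genes, so they are not shown to be particular to the autophagy genes. Without WT 4 the count called lower was 23, and without HdR 4 it was 22. Among all tested genes 2764 and 2624 were then called lower, against 2829 with every library.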

How the data were processed

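RNA sequencing libraries from primary mouse keratinocytes, 4 HdR and 4 WT, were compared. Per the labels' protocols, RNA was extracted on RNeasy columns and sequenced as NEBNext Ultra II libraries. The submitters' processing notes name GRCm38 as the build; the aligner, counting tool, filters and strand setting are not given in the sources used here. The authors deposited 1 table of signal, the coverage summed as aligned bases per gene and library, unscaled. That unit was read from the values: the commonest was 302, then 604 and 906, and 16.9% of non-zero values under 10 steps were whole multiples of 302, so they are not read counts.

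Libraries were scaled by trimmed-mean (TMM) factors (trims of 30% and 5%) to aligned bases per Mb. Genes with a mean of at least 1 were fitted on log2(value + 1) with limma 3.58.1 in R 4.3.3 (mean trend, robust variance, statmod 1.5.0), genotype as the only factor. Two-sided p-values were adjusted over 11870 genes by the Benjamini-Hochberg method. The 1 added before taking logs understates changes of low genes. The fit was tested on simulated data, where it recovered 32% of genes changed by a fold of 1.2 and 78% of those changed by 1.5. Of the 115 calls there, 4.35% were false. Far fewer genes were called in the simulation, 115 among 11824, than in these data, 5346 among 11870. The adjusted threshold was thus stricter there, and the shares recovered do not give the sensitivity in these data. A gene that was not called may still have changed by a small fold.

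The 40 genes and all lists were chosen with earlier results of these data known. Values per library are given for the ubiquitin-binding receptors and for other called genes with separate groups and a log2 fold change of at least 0.3 in size; from each further list the 4 genes with the smallest p are named. Coordinates of exons come from GENCODE M21 (GRCm38) and promoters from RefSeq (GRCm38.p6). Exons of 7 of the 40 genes overlap another gene of the table. Alternatives were other scalings, filters and pseudocounts, limma-voom, a replicate block, a test against a fold of 1.2, thinning, and leaving out each library. Figures used Python 3.11.15 and matplotlib 3.10.9.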

Additional observations from a re-analysis of the deposited data

Results flagged for a closer look

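Among the 80 sets of 4 values examined (40 genes in HdR and in WT), 2 held a library far from the others, and chance flags about 1 in 20 such sets. Ulk2 in WT 3 was at 15.5 per Mb, with the other WT libraries at 18.8 to 19.4. Pik3r4 in WT 3 was at 26.6 per Mb, with the other WT libraries at 29.9 to 30.2.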

How the results depend on the processing

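Of the 24 calls, 19 were made in the same direction under every alternative run other than the test against a fold of 1.2; the exceptions were Tax1bp1, Atg101, Atg4b, Gabarap and Tfeb. The number called lower was 19 to 24 under these alternatives, and 20 to 23 when single libraries were left out; the number called higher was 1 in each, except 2 with upper-quartile scaling, where Lamp1 joined Wipi1. Against a fold of 1.2 the counts were 3 lower and 0 higher, and 887 of all tested genes were called, against 5346. Upper-quartile scaling moved the share of calls that were lower to 42.3%, against 52.9%, and the median of all genes to 0.03, against -0.01. The difference between receptors and core machinery ran from -0.21 to -0.17 when single libraries were left out, and was -0.30 with Calcoco1 counted as a ubiquitin-binding receptor; that move follows from the added gene.

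Sign changes occurred in genes that were not called. With upper-quartile scaling Fundc1 was at 0.02, Uvrag at 0.02 and Atg3 at 0.00; with library totals alone Fundc1 was at 0.00 and Uvrag at 0.01. With limma-voom Fundc1 was at 0.00 and Atg5 at -0.00; after thinning Uvrag was at 0.01, Atg3 at 0.01 and Atg5 at -0.06. With single libraries left out, the log2 fold change ran from -0.05 to 0.01 for Fundc1, from -0.05 to 0.02 for Uvrag, from -0.01 to 0.03 for Atg2b, from -0.01 to 0.03 for Atg5 and from -0.02 to 0.11 for Atg16l1. The cause was not tested.

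Replicate numbers are shared by the genotypes, but same-numbered libraries did not deviate together (r across genes, which are not independent, of -0.222 to 0.0277), and not every HdR library correlated best with its own number. With the replicate block 21 genes were called lower and 1 higher (Tax1bp1, adjusted p = 0.0815, and Tfeb, 0.0629, were no longer called), and 4755 of all tested genes were called. Depth limits some of the calls: with all libraries thinned to the smallest, 19 genes were called lower, against 23. Lower calls among all tested genes fell as well, to 2362 from 2829.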
